A study of Mus musculus with 12 samples.

Results

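The transcription factors that build and maintain the B cell lineage were examined in bone marrow (BM) of mice carrying leukemia-associated alleles. They were 9 of the 12199 genes in the deposited count table, found in it by gene symbol from a list of names drawn up with earlier results of these data known: Ebf1, Pax5, Foxo1, Ikzf3, Pou2af1, Bach2, Lef1, Irf4 and Tcf3. All 9 passed the filter on low counts (more than 0.5 CPM, reads scaled to the library's total, in more than 3 libraries), as did 12175 of the 12199 genes. For Pax5 and Lef1 this rested on the 3 WT libraries and 1 of the 8 mutant libraries, and for Ebf1 on 3 WT and 6 mutant libraries, while the other 6 factors were over 0.5 CPM in all 11 libraries.

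RNA-seq counts were analysed for 11 libraries of whole BM mononuclear cells of C57BL/6 mice: 3 WT, 3 DF, 3 TF and 2 TFD. DF mice carried Dnmt3aFlox/+ with MxCre and Flt3 ITD/+, TF mice were Tet2+/- with Flt3ITD/+ and no MxCre in their label, and TFD mice combined Tet2+/-, Flt3ITD/+, Dnmt3aFlox/+ and MxCre. Flt3ITD is an internal tandem duplication that keeps the receptor active, Tet2 removes and Dnmt3a adds DNA methylation, and MxCre is a Cre induced through interferon that acts in all blood lineages and in other tissues. Every mouse, WT included, received poly(I:C) at 8 to 10 weeks of age and was examined 8 to 9 weeks later; the WT mice carried no Cre. There was no group with Flt3ITD alone, so that each comparison with WT joins Flt3ITD to the loss of Tet2 or Dnmt3a. The labels give no litter or batch, and nothing in them says whether a library came from 1 mouse or several.

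Libraries held between 8274153 and 15900904 counted reads. Tet2 averaged 7.28 log2 CPM in WT and 7.47 in TF, and was not called lower in the Tet2+/- groups (TF against WT, log2 fold change 0.20, adjusted p = 0.33; TFD against WT, 0.25, adjusted p = 0.318). It was called higher in DF (7.77, log2 fold change 0.49, adjusted p = 0.0261). Dnmt3a averaged 5.49 in WT, 5.37 in DF and 5.82 in TFD (DF against WT, -0.15, adjusted p = 0.578), and since its reads were summed over the whole gene they do not test the floxed exons. Dnmt3a was called higher in TF (6.09, log2 fold change 0.58, adjusted p = 0.0444). Flt3 was higher in each mutant group (log2 fold changes of 0.93 for DF, 1.38 for TF and 1.94 for TFD). The label "mononuclear" stood beside high neutrophil marker levels, with 8 neutrophil markers summing to between 23900 and 79500 CPM. TF replicate 3 stood apart: for all 9 factors it was the highest of the 8 mutant libraries, and it lay above both other TF libraries for 37.9% of all genes tested. It was 1 of 3 libraries with over 10000 Xist reads, beside WT replicate 3 and TFD replicate 2. DF replicate 1 had 538 Xist reads beside 1628 reads of the Y-linked Ddx3y, while the other 7 libraries with over 1000 Ddx3y reads had 18 to 32 Xist reads. DF replicate 1 was the highest DF library for 7 of the 9 factors (not Foxo1 or Ikzf3), for Lef1 by 0.397 against 0.396 CPM, and the part of this in their levels was not tested.

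B cell identity is set up in steps. Tcf3, which encodes the E proteins E12 and E47, acts in lymphoid progenitors together with Foxo1 and turns on Ebf1, and Ebf1 in turn activates Pax5, the factor that holds cells to the B lineage. Lef1 acts in proliferating pro-B cells downstream of Wnt signals, Ikzf3 (Aiolos) rises as pre-B cells mature, and Pou2af1 (OCA-B) is the octamer coactivator of mature B cells. Bach2 is a repressor that keeps B cells from becoming plasma cells, and Irf4 acts in pre-B cells, plasma cells and several dendritic and T cells.

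The promoters of these genes are shown for the pair with the lowest levels in mutant BM relative to WT, Ebf1 and Pax5, and for Foxo1, which acts upstream of both. The sequences are from RefSeq on GRCm38.p6 and run 5′ to 3′ on the gene's strand from 250 bases before to 50 bases after an annotated start. Ebf1 had 2 annotated starts, on the plus strand at chr11:44617850-44618149 (start 1) and chr11:44619978-44620277 (start 2). The Pax5 window lay on the minus strand at chr4:44710645-44710944 and that of Foxo1 on the plus strand at chr3:52268087-52268386. Capitals mark matches to 8 binding motifs of these factors or their families, described after the sequences; none was searched for Pax5.
Ebf1 start 1: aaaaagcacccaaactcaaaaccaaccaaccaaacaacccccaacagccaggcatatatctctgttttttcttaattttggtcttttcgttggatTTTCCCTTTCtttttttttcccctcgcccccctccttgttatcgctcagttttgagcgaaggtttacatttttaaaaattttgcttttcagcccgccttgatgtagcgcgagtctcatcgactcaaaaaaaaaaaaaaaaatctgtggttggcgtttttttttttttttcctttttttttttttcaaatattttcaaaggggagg
Ebf1 start 2: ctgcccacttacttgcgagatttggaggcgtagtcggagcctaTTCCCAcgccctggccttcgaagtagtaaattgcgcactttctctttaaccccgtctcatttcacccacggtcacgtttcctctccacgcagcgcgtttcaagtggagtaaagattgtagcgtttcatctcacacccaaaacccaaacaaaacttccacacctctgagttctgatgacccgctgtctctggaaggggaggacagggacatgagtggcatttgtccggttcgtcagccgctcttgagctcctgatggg
Pax5: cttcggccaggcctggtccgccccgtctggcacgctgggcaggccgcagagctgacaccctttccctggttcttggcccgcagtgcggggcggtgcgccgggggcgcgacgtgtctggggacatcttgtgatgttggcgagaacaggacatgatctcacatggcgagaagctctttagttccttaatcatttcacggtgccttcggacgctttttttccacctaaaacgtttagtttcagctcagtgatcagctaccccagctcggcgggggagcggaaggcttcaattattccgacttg
Foxo1: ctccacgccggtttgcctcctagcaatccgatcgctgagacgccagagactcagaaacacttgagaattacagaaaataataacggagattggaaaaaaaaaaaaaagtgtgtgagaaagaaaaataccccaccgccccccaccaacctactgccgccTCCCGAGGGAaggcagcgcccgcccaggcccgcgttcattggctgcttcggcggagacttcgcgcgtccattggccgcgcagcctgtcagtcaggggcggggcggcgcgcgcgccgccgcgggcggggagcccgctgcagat

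Motifs of 8 kinds, each given by its letters, were searched on both strands of the 12 windows that 8 of the factors had in the table, and in all 32851 promoter windows of the same length. The EBF motif (TCCC, any 2 bases, GGGA) was found in 0.904% of all windows and in 1 of the 12, that of Foxo1, as TCCCGAGGGA from position -92 to -83 relative to the start base (counted as 0). The IRF motif (GAAA, any 2 bases, GAAA) was found in 3.44% of all windows and in 1 of the 12, Ebf1 start 1, from -155 to -146 on the opposite strand. The Ikaros family motif TGGGAA was found in 25.6% of all windows and in 4 of the 12, 1 of Ebf1 (start 2, from -207 to -202 on the opposite strand) and 3 of Lef1. The first pair of Lef1 windows overlap and their matches are the same stretch of the genome. The E box CAGGTG was in 20.2% of all windows and in 1 of Lef1. The FOXO motif GTAAACA (3.65% of all windows), the octamer ATGCNAAT (3.15%), the TCF/LEF motif CTTTGAT (3.73%) and the BACH and AP-1 core TGANTCA (7.81%) had no match in the 12 windows, and Pax5, Pou2af1, Bach2, Irf4 and Tcf3 had no match to any of the 8 motifs. No match overlapped another in these windows. A match is a stretch of letters and not a measured binding site, and these data hold no binding or methylation measurement at these starts.

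All 9 factors were lower in DF, TF and TFD BM than in WT, each with an adjusted p under 0.05 in each comparison (edgeR quasi-likelihood test). Over all genes tested, 16.6% were called lower in DF, 15.6% in TF and 11.6% in TFD. For every factor, all 8 mutant libraries lay below all 3 WT libraries, which was so for 11.8% of the genes tested. The 9 had a median log2 fold change of -4.10 for DF, -2.87 for TF and -3.71 for TFD, while the median over all genes was 0.06, 0.02 and 0.01. Because whole BM was sequenced, fewer B cells and less RNA of a gene per B cell cannot be told apart. The 3 comparisons share the WT libraries, and their values are given side by side without a test of their likeness.

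**Figure D1:**
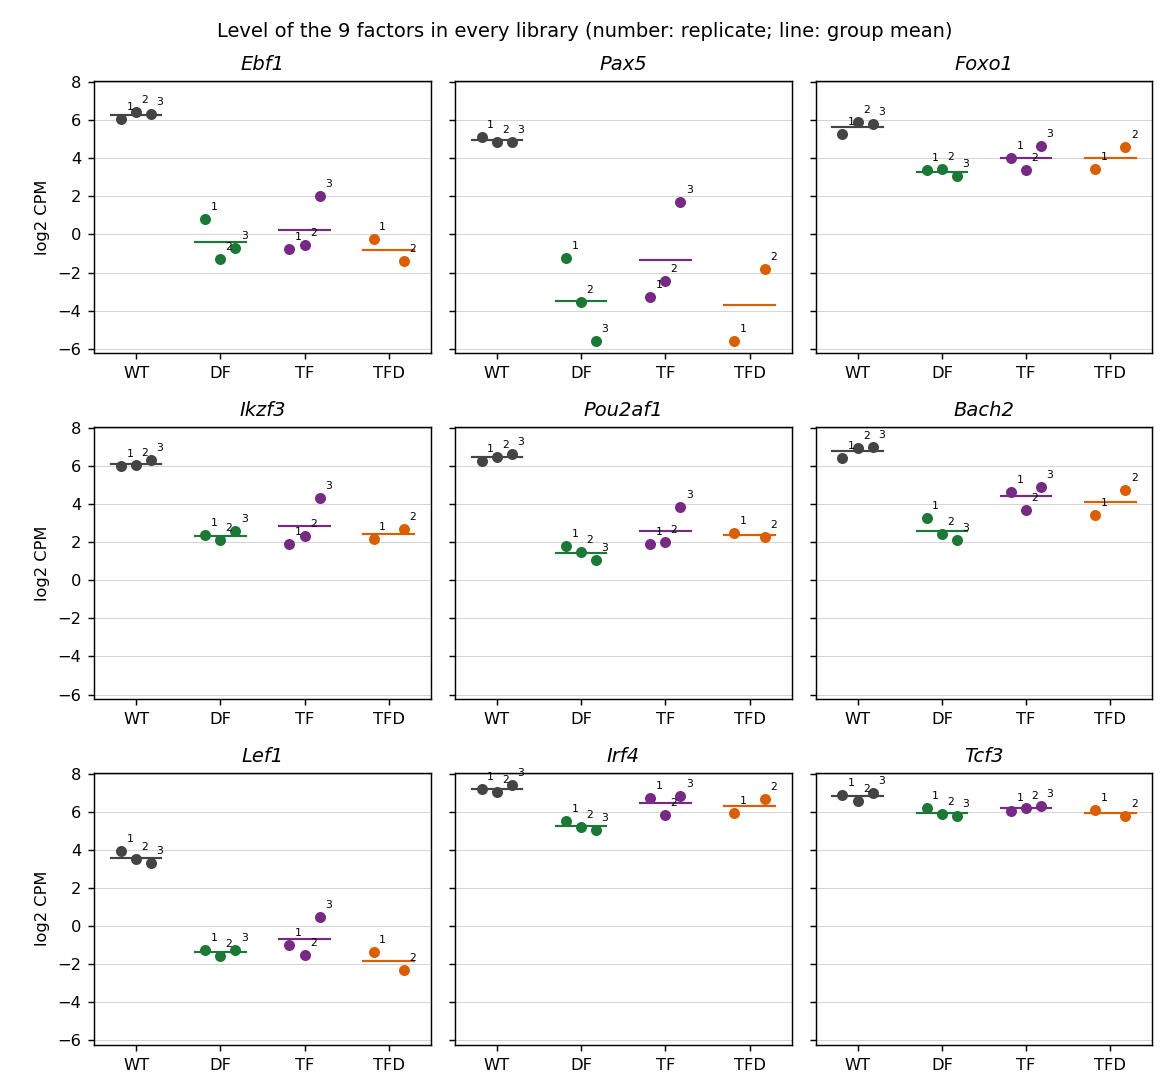
Level of each of the 9 factors as log2 CPM (vertical axis, the same in every panel) in every library, by group; each point is a library with its replicate number and each line a group mean (n = 3 for WT, DF and TF, n = 2 for TFD). All mutant points lie below all WT points in each panel, and TF replicate 3 is the highest mutant point in all 9.

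Between genes, levels were compared as RPKM (CPM per kilobase of counted length). In WT BM the order was Pou2af1 (34.2 ± 3.83 RPKM, SD, n = 3), Tcf3 (32.0 ± 4.96), Irf4 (31.9 ± 4.32), Pax5 (25.5 ± 2.58), Ikzf3 (17.1 ± 2.08), Ebf1 (14.6 ± 1.82), Bach2 (13.1 ± 2.71), Foxo1 (9.22 ± 1.93) and Lef1 (3.33 ± 0.791). The ranges of the first 3 overlapped, as did those of Irf4 with Pax5, Ikzf3 with Ebf1, Ebf1 with Bach2 and Bach2 with Foxo1. The ranges of Pax5 and Ikzf3, and of Foxo1 and Lef1, did not. Pax5 was counted over 1208 bases, the shortest of the 9, and its RPKM refers to that length. In the 8 mutant libraries Tcf3 (15.2 to 22.3 RPKM) and Irf4 (7.12 to 24.3) lay above the other 7 factors, whose highest value was 5.62. Foxo1 (1.52 to 4.58 RPKM), Pou2af1 (0.810 to 5.62), Bach2 (0.501 to 3.48) and Ikzf3 (0.907 to 4.94) overlapped one another and are not ranked here. Ebf1 ranged from 0.0669 to 0.771 RPKM and Lef1 from 0.0483 to 0.371. Pax5 was at 2.72 RPKM in TF replicate 3 and between 0 and 0.329 in the other 7 mutant libraries, and its order against Ebf1 and Lef1 is not given, since these ranges overlap.

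Among the lineage-specifying factors, Ebf1 (chr11:44618100-45008096, plus strand, mm10) was at 67, 86.0 and 79.7 CPM in WT. It was at 1.75, 0.386 and 0.594 CPM in DF, at 0.566, 0.654 and 4.10 in TF and at 0.813 and 0.356 in TFD, from 4 to 45 reads per library. The highest mutant library, TF replicate 3, was 4.02 log2 units below the lowest WT library. The log2 fold change of Ebf1 against WT was -6.42 ± 0.54 (SE) for DF, -5.49 ± 0.50 for TF and -6.95 ± 0.67 for TFD, with adjusted p of 7.61e-06, 1.06e-05 and 2.19e-05. Without TF replicate 3 the value in TF was -6.97, without DF replicate 1 that in DF was -7.35, and without TFD replicate 1 that in TFD was -7.72.

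Pax5 (chr4:44531506-44710440, minus strand), which represses genes of other lineages and activates those of B cell receptor signalling, was at 34.4, 29.3 and 28.7 CPM in WT. In mutants it had 5, 1 and 0 reads in DF, 1, 2 and 36 in TF and 0 and 3 in TFD, against 419, 237 and 321 reads in WT. Apart from TF replicate 3 (3.28 CPM), no mutant library exceeded 0.397 CPM. At 1 to 3 reads a library says little more than that the gene was near the limit of counting, and the fitted changes of -7.53 ± 0.89 (SE) for DF and -7.98 ± 1.10 for TFD (adjusted p = 5.29e-05 and 2.60e-04) depend on the prior count of the fit. From the summed reads, Pax5 was 198-fold lower in DF (6 reads against 977; 95% exact interval 90.7 to 541) and 282-fold lower in TFD (3 reads against 977; 96.2 to 1370), intervals that cover counting error only. In TF the log2 fold change was -4.77 (SE 0.68, adjusted p = 2.52e-04), and without TF replicate 3 it was -7.87. Without DF replicate 1 the fitted value in DF was -9.31, and it was -6.79 in TFD without TFD replicate 1 and -11.56 without TFD replicate 2.

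Tcf3 (chr10:80409165-80433653, minus strand) had the smallest change of the 9 in DF and TF, and in TFD its change (1.85-fold lower) was close to that of Irf4 (1.83-fold lower), the smallest. It was at 120, 93.8 and 127 CPM in WT, at 72.7, 59.6 and 54.2 in DF, at 67, 74.1 and 79.2 in TF and at 69.1 and 54.0 in TFD. The highest mutant library was 0.24 log2 units below the lowest WT library, the second narrowest gap after that of Irf4 (0.19). Against WT, the log2 fold change was -0.87 ± 0.15 (SE) for DF, -0.63 ± 0.15 for TF and -0.88 ± 0.17 for TFD (adjusted p = 6.85e-04, 0.00568 and 0.00219), so that mutant BM kept 54.7%, 64.6% and 54.2% of the mean WT level.

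Foxo1 (chr3:52268337-52350109, plus strand), which drives Rag1, Rag2 and Il7r in B cell progenitors, was at 39.0, 59.2 and 55.4 CPM in WT. It was at 10.3, 10.7 and 8.41 in DF, at 16.3, 10.5 and 25.4 in TF and at 10.8 and 24.0 in TFD; the 3 DF libraries were close together and the TF and TFD libraries spread wider. Foxo1 fell by 2.37 ± 0.33 (SE) log2 units in the DF group, by 1.56 ± 0.31 in the TF group and by 1.57 ± 0.36 in the TFD group (adjusted p = 1.52e-04, 0.00234 and 0.00642). The call in TFD was lost without TFD replicate 1 (-1.09, adjusted p = 0.0658), and without TFD replicate 2 the value was -2.24. An antisense gene on the other strand, Gm20402, shares 674 bases (12.1%) of the counted Foxo1 length, and whether the authors counted by strand is not given in the sources used here.

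**Figure D2:**
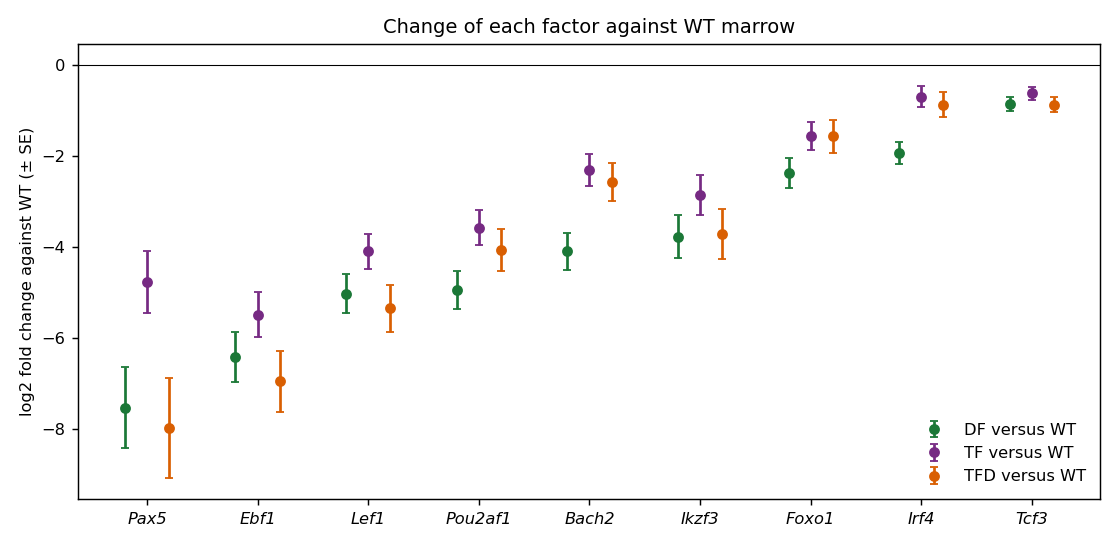
Log2 fold change against WT (vertical axis) with its standard error for each factor (horizontal axis, ordered by the value in DF), in DF, TF and TFD. All points lie below 0, from -7.98 (Pax5 in TFD) to -0.63 (Tcf3 in TF).

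Among the factors of later B cell stages, Pou2af1 (chr9:51213690-51240079, plus strand) was at 77.9, 87.7 and 97.6 CPM in WT. It was at 3.49, 2.83 and 2.08 CPM in DF, at 3.80, 4.01 and 14.4 in TF and at 5.57 and 4.81 in TFD. The log2 fold change from WT was -4.95 ± 0.42 (SE) for DF, -3.58 ± 0.38 for TF and -4.07 ± 0.46 for TFD, with adjusted p between 7.96e-06 and 6.58e-05, and -4.49 for TF without TF replicate 3. Of the DNA-binding partners of Pou2af1, Pou2f2 (Oct-2) differed from WT by -0.10 in DF, 0.13 in TF and 0.04 in TFD (none called), and Pou2f1 (Oct-1) by -0.32 in DF (adjusted p = 0.0437), -0.17 in TF and -0.14 in TFD.

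Ikzf3 (chr11:98464693-98546031, minus strand) was at 62.9, 67.6 and 79.4 CPM in WT, and between 3.72 and 6.33 CPM in 7 of the 8 mutant libraries. The eighth, TF replicate 3, was at 20.2 CPM. Against WT, the log2 fold change was -3.78 ± 0.47 (SE) for DF, -2.87 ± 0.44 for TF and -3.71 ± 0.55 for TFD (adjusted p = 7.77e-05, 4.33e-04 and 4.41e-04), and that in TF was -3.99 without TF replicate 3. Its relative Ikzf1 (Ikaros), expressed across blood cells, was at -0.53, -0.58 and -0.49 (adjusted p = 0.0131, 0.00873 and 0.0423).

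Lef1 (chr3:131110297-131224357, plus strand) had the lowest WT level per length. It had 189, 93 and 110 reads in WT and between 2 and 15 in mutants, or 9.85 to 15.5 CPM against 0.178 to 1.37. The log2 fold change from WT was -5.03 ± 0.43 (SE) for DF, -4.10 ± 0.39 for TF and -5.35 ± 0.52 for TFD, with adjusted p between 8.46e-06 and 2.33e-05. Without TF replicate 3 it was -4.89 for TF, and without TFD replicate 1 it was -6.03 for TFD. The antisense gene Gm43352 shares 1382 bases (37.5%) of the counted length of Lef1. Tcf7, the closest relative of Lef1 and a T cell factor, was at -2.46, -1.60 and -2.72 (adjusted p = 0.000145, 0.00212 and 0.000376).

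Bach2 (chr4:32417435-32586108, plus strand) was at 85.0, 122 and 127 CPM in WT. It was at 9.76, 5.34 and 4.26 CPM in DF, at 24.9, 13.1 and 29.6 in TF and at 10.9 and 26.7 in TFD, so that the 3 DF libraries were the lowest of the 8. Bach2 fell by 4.10 ± 0.40 (SE) log2 units in the DF group, by 2.31 ± 0.35 in the TF group and by 2.58 ± 0.42 in the TFD group (adjusted p = 1.86e-05, 4.27e-04 and 8.08e-04), and without TFD replicate 2 the TFD value was -3.35. Bach1, its relative in myeloid cells, differed by 0.20, 0.17 and 0.35 and was not called. Bach2os, antisense to Bach2, shares 537 bases (6.32%) of the counted length.

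Irf4 (chr13:30749258-30766927, plus strand) was at 147, 130 and 170 CPM in WT. It was at 46.3, 36.8 and 33.4 CPM in DF, at 106, 56.0 and 114 in TF and at 61.7 and 101 in TFD. The DF libraries were again the lowest of the 8, and TF replicate 3 lay 0.19 log2 units below the lowest WT library. Irf4 fell by 1.94 ± 0.25 (SE) log2 units in the DF group, by 0.70 ± 0.24 in the TF group and by 0.88 ± 0.28 in the TFD group (adjusted p = 1.10e-04, 0.0407 and 0.0346). The calls of Irf4 in TF and TFD were those lost most often when 1 library was left out. Leaving out any of 6 libraries in turn (WT replicate 1, 2 or 3, DF replicate 2, TF replicate 1 or TF replicate 2) ended the call in TF, with values from -0.45 to -0.82, and leaving out WT replicate 1, WT replicate 3 or TFD replicate 1 ended that in TFD, with values from -0.56 to -0.89. The call in TFD was also lost with the replicate number as a block (-0.78, adjusted p = 0.0811).

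The other genes of these families, which took 24 names in a fixed list with 18 tested, moved in both directions. In DF 10 of 18 were called lower and 2 higher, in TF 3 lower and 5 higher, and in TFD 4 lower and 2 higher, beside 21.0%, 19.0% and 14.7% of all genes called higher. The medians of the list were -0.39, 0.11 and -0.13. Irf8 and Irf5, relatives of Irf4 that act in myeloid and dendritic cells, rose in each mutant group: Irf8 by 1.31 in DF, 1.71 in TF and 1.43 in TFD (adjusted p at most 1.75e-05), and Irf5 by 1.56, 1.63 and 1.62. Ikzf1, Tcf7 and the E protein gene Tcf12 were called lower in all 3, Tcf12 at -0.69, -0.49 and -0.67. Foxo3, the closest relative of Foxo1, differed by -0.09, -0.01 and -0.01 and was not called. Tcf7l2 was called lower in DF (-1.55, adjusted p = 0.0109) and not in TF (-0.85, adjusted p = 0.113) or TFD (-0.94, adjusted p = 0.143). Ebf3, the relative of Ebf1 in the table, was at -1.42 log2 CPM in WT and was called higher in TF (1.95, adjusted p = 0.0246) and not in DF (1.53, adjusted p = 0.0685) or TFD (1.43, adjusted p = 0.135), on 3 to 25 reads per library.

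**Figure D3:**
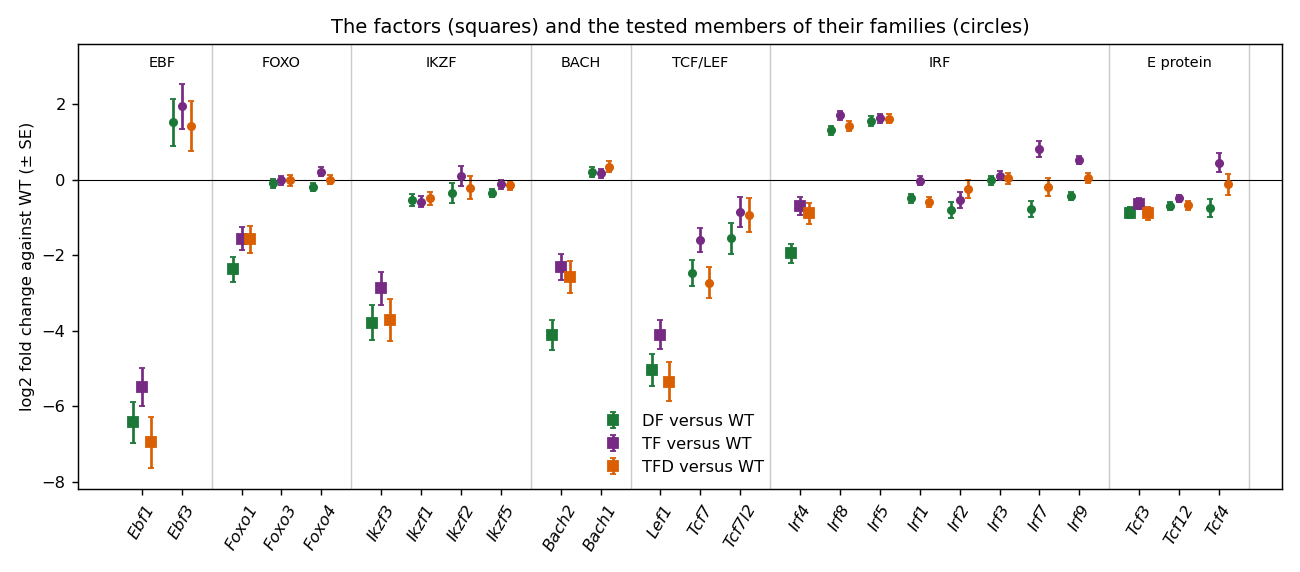
Log2 fold change against WT (vertical axis) with its standard error for the 7 of the 9 factors with a relative in the table (squares) and the tested members of their families (circles), in DF, TF and TFD. In each comparison the square is the lowest point of its family, as with Ebf1 (-6.42 in DF, with Ebf3 at 1.53) and, by a narrower margin, Tcf3 (-0.87 in DF, with Tcf4 at -0.74).

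Partners and inhibitors of the 9 factors were counted in a list of 25 genes, of which 23 were tested. In DF 4 were called lower and 7 higher, in TF 4 and 4, and in TFD 3 and 4, with medians of -0.07, 0.11 and 0.05. Of all genes tested, 16.6%, 15.6% and 11.6% were called lower and 21.0%, 19.0% and 14.7% higher. Spib, an Ets factor of B cells and plasmacytoid dendritic cells, was at -5.83 in DF, -2.30 in TF and -3.93 in TFD (adjusted p = 5.35e-05, 0.00534 and 0.00141). Id3, which blocks E proteins, was lower by each test (-2.35, -2.15 and -2.11), as was Ets1 (-0.74, -1.29 and -1.24). Zfp521, which binds and restrains Ebf1, rose by 0.64, 0.80 and 1.03 (adjusted p = 0.042, 0.0159 and 0.00757), and Cbfb, the Runx partner, rose by 0.53, 0.47 and 0.51. Id1 was called higher in DF (0.99) and TFD (0.83), and Id2 in none of the 3 (0.37, 0.23 and 0.11). Tle2, a Groucho corepressor, was called higher in TFD (1.12, adjusted p = 0.0379) and not in DF (0.29) or TF (0.90, adjusted p = 0.0573). Among 12 other transcription factors of lymphoid cells, 5 were called lower in DF, 1 in TF and 1 in TFD, and none higher. Gata3 (-2.55), Bcl11b (-1.54) and Bcl11a (-1.41) had the largest falls in DF, Myb was called lower in TF (-0.41) and Bcl11b in TFD (-1.80).

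The target genes of Ebf1 and Pax5 were lower as well. Of 18 listed targets 16 were tested; 16 were called lower in DF, 15 in TF and 16 in TFD, with medians of -5.86, -3.58 and -4.75. Those named were at these log2 fold changes for DF, TF and TFD in turn: Rag1, the recombinase of antigen receptor genes, at -7.53, -6.19 and -8.92, and Blk, a kinase of the B cell receptor, at -7.13, -3.88 and -5.92. Vpreb3 was at -6.88, -5.88 and -6.96, and Cr2 (CD21) at -6.44, -6.95 and -6.94. Cd22 was the exception in TF (-1.44, adjusted p = 0.0736). Rag1 had 0 to 23 reads per library in DF, 1 to 50 in TF and 0 to 6 in TFD, and Blk had 0 to 8 in DF. As for Pax5, such fitted changes depend on the prior count of the fit. Of 12 listed targets of Foxo1 in lymphocytes, 3 of them also on the list for Ebf1 and Pax5, 11 were tested and 7 were called lower in DF, 6 in TF and 6 in TFD, with medians of -0.58, -0.47 and -0.55. The falls of Rag1, Blnk, Il7r, Ccr7 and S1pr1 were each larger than these medians. Rag1 was on both lists, as was Blnk, an adaptor of the pre-B cell receptor, at -4.73, -3.02 and -3.53. Il7r, the IL-7 receptor of B cell progenitors, was at -4.86, -2.65 and -3.49, Ccr7, a receptor for homing to lymph nodes, at -4.43, -2.94 and -4.05, and S1pr1, which guides exit from tissue, at -4.22, -2.68 and -3.70. Some targets that many marrow cells express were not called in any of the 3: Cdkn1b was at -0.14, 0.04 and -0.03 and Irs2 at -0.02, 0.03 and 0.06. Klf2 was called higher in TFD (0.41, adjusted p = 0.035).

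The levels of the 9 factors were next set against B lineage markers in the same library. The 12 markers, of which 11 are also listed targets of Ebf1 and Pax5, summed to between 554 and 711 CPM in WT, 21.4 and 34.6 in DF, 33.5 and 148 in TF and 30.7 and 31.0 in TFD. TF replicate 3 was the library at 148 CPM. No marker was at 0 in all libraries of a group, but Igll1 and Blk were at 0 reads in a DF library and Vpreb1 in a TF library. Cd79b made up between 16.2% and 17.9% of the marker reads in WT and 17.4% in TF replicate 3, and between 31.6% and 57% in the other 7 mutant libraries. The marker reads behind a ratio numbered between 4895 and 7941 in WT and between 235 and 1624 in mutants.

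Per 1000 marker reads, the factors fell into 3 patterns. A ratio rises where a factor fell less than the marker sum, and drops where it fell more. The patterns thus restate the fold changes and are not levels per B cell. Reads of a factor can also come from other cells, and that part was not tested. Ebf1 and Pax5 were lower in all 8 mutant libraries than in WT: Ebf1 had 112 to 142 reads per 1000 marker reads in WT and 11.5 to 50.5 in mutants, and Pax5 had 40.4 to 62.1 in WT and 0 to 22.2 in mutants. Foxo1, Irf4 and Tcf3 were higher in all 8: Foxo1 had 70.4 to 97.7 in WT and 172 to 773 in mutants, Irf4 215 to 265 and 768 to 3270, and Tcf3 155 to 216 and 534 to 2780. For Ikzf3, Pou2af1, Bach2 and Lef1 the mutant libraries were not all above or all below WT: 7 were above and 1 below for Ikzf3, 2 above and 6 below for Pou2af1, 6 above and 0 below for Bach2, and 0 above and 5 below for Lef1. Ikzf3 was at 112 to 113 in WT and 111 to 255 in mutants, Pou2af1 at 137 to 145 and 89.4 to 182, Bach2 at 153 to 201 and 183 to 862, and Lef1 at 13.9 to 28.0 and 5.75 to 17.0. These ratios are descriptions without a test. Cd79b made up 31.6% to 57% of the denominator in the mutant libraries other than TF replicate 3, against 16.2% to 17.9% in WT. Its larger share lowers those mutant ratios, and ratios without Cd79b are not given. With Cd79a and Cd79b alone as the denominator, Foxo1, Irf4 and Tcf3 were above WT and Ebf1, Pax5, Pou2af1 and Lef1 below it in all 8. This is no independent check, since both are among the 12 markers and Cd79b, with most of their reads in mutants, had the smallest fall of the list in DF (-2.95) and TFD (-3.14), which lowers the ratios in mutants. Ikzf3 turned from 7 of 8 mutant libraries above WT to 2 above and 6 below, and Bach2 from 6 above and 0 below to 3 above and 3 below.

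**Figure D4:**
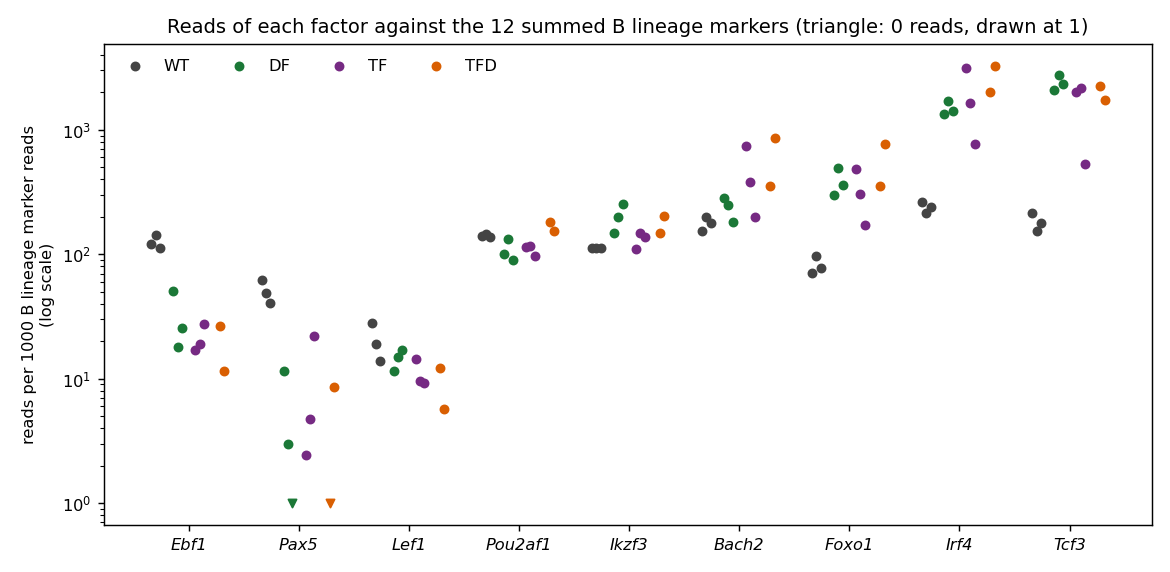
Reads of each factor per 1000 reads of the 12 B lineage markers (vertical axis, log scale) in every library, by group; triangles at the bottom stand for the 2 libraries with 0 Pax5 reads. Mutant points lie below WT for Ebf1 and Pax5, are not all on one side of it for Lef1, Pou2af1, Ikzf3 and Bach2 (6 of 8 above WT for Bach2), and lie above it for Foxo1, Irf4 and Tcf3.

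Markers of several other cell types differed from WT too, some lower and some higher. Of 12 T cell markers 9 were called lower in DF, 3 in TF and 6 in TFD, and their sum was between 87.6 and 105 CPM in WT, 24.2 and 40.5 in DF, 36.3 and 100 in TF and 23.3 and 32.2 in TFD. Lef1 and Tcf7 are T cell genes too. Of 7 plasma cell markers 5 were lower and 1 higher in DF (Xbp1, 0.43, adjusted p = 0.0078), 1 was lower in TF and 5 in TFD, their sum being 807 to 1530 CPM in WT, 417 to 424 in DF, 569 to 1060 in TF and 462 to 610 in TFD. Jchain had the most reads of that list. Mature B cell markers (5 of 7 listed in the table) summed to 198 to 217 CPM in WT and 5.28 to 75.5 in mutants. Of 8 NK cell markers 6 were lower in DF, 5 lower and 1 higher in TF and 5 lower in TFD, and they summed to 74.9 to 79.3 CPM in WT and 45.0 to 80.6 in mutants. The 7 monocyte markers, of which 5, 6 and 4 were called higher, summed to 1540 to 1710 CPM in WT and 4240 to 5500 in mutants. The 5 stem and progenitor markers tested, of which 2, 1 and 2 were called higher, summed to 128 to 137 and 161 to 276. Of 6 erythroid markers 6, 5 and 5 were lower, with medians of -4.19, -1.37 and -2.15, and they summed to 427 to 559 CPM in WT, 24.6 to 34.4 in DF, 96.2 to 384 in TF and 90.5 to 134 in TFD. Of 6 classical dendritic markers 1 was lower and 1 higher in DF, 5 were higher in TF and 4 in TFD, with medians of 0.57, 2.11 and 1.90, from 65.8 to 84.7 CPM summed in WT. Of 8 plasmacytoid dendritic markers 6 were lower in DF, 2 lower and 3 higher in TF and 4 lower in TFD. TF replicate 3 was the highest TF library in the sums of the T cell (100 CPM), plasma cell (1060), mature B cell (75.5), NK cell (80.0), erythroid (384), plasmacytoid (602) and classical dendritic (413) lists. The part of these cells in the levels of the 9 factors was not tested.

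By the root mean square difference of centred log2 CPM over the 11 libraries, the 5 genes nearest to Ebf1 of 11880 compared were Scd1 (0.67), Trib2 (0.67), Cecr2 (0.70), Akap12 (0.74) and Ms4a1 (0.79). Among the 5 nearest to Pax5 were Rag1 (1.2), Cecr2 (1.22), Ms4a1 (1.22) and Chst3 (1.24), so that Cecr2 and Ms4a1 (CD20) stood in both lists. The genes nearest to Tcf3 were Ormdl3 (0.10), Pitrm1 (0.13), Ppp2r1b (0.13), Hspe1 (0.14) and Rmdn3 (0.14). The libraries share the genotype groups, and a small difference says only that the profiles are alike.

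Between the mutant genotypes, Bach2 and Irf4 were lower in DF than in TF, and the other 7 factors were not called. Over all genes 4.27% were called lower and 1.67% higher in DF than in TF. Bach2 averaged 6.45 CPM in DF and 22.5 in TF (log2 fold change -1.79, SE 0.39, adjusted p = 0.0201), and no DF library reached a TF library (highest DF 9.76 CPM, lowest TF 13.1). Irf4 averaged 38.8 CPM in DF and 91.8 in TF (-1.24, SE 0.25, adjusted p = 0.0148), and again the groups did not overlap (46.3 against 56.0). All 9 values were below 0, from -0.24 (Tcf3) to -2.76 (Pax5, SE 1.24, adjusted p = 0.246), and 5 had an unadjusted p under 0.05. Without TF replicate 3, Ebf1 was at 0.54, Pax5 at 0.34 and Ikzf3 at 0.21, Bach2 at -1.55 (adjusted p = 0.0521) and Irf4 at -1.06 (adjusted p = 0.0395). Without DF replicate 2 (Bach2 -1.65, adjusted p = 0.103; Irf4 -1.2, adjusted p = 0.0803) or DF replicate 3 (-1.61, adjusted p = 0.0850; -1.17, adjusted p = 0.0660) neither was called. Pou2af1 (-1.36) was called in addition without TF replicate 1 (-1.68, adjusted p = 0.0374) or TF replicate 2 (-1.66, adjusted p = 0.0297), and without TF replicate 3 it was at -0.46 (adjusted p = 0.41).

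**Figure D5:**
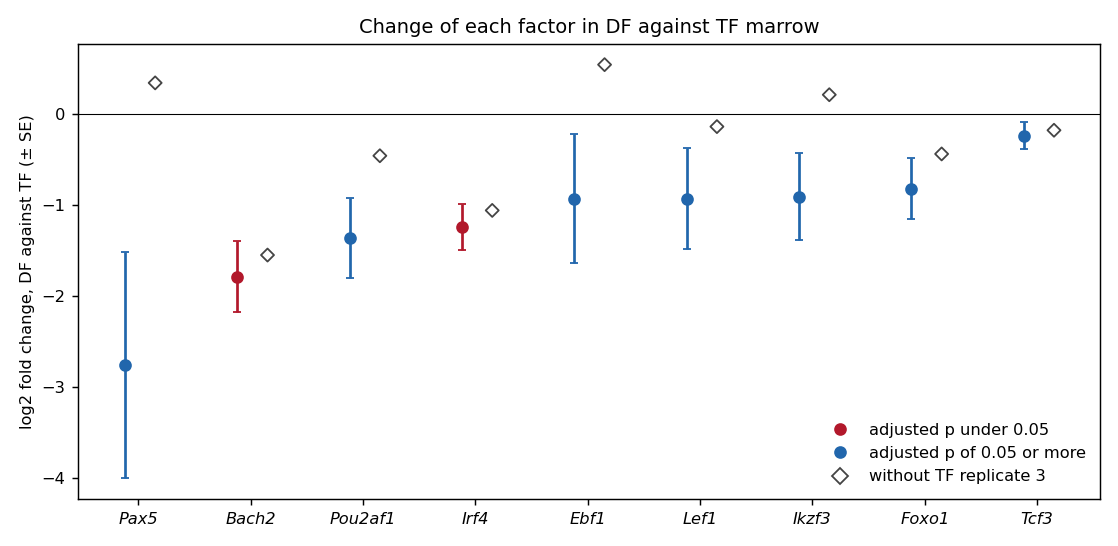
Log2 fold change of DF against TF (vertical axis) with its standard error for each factor, called (red) or not (blue), and the value without TF replicate 3 (open diamonds). Bach2 and Irf4 are the 2 called, and without that library Pax5, Ebf1 and Ikzf3 lie above 0.

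Markers of plasmacytoid dendritic cells, interferon-producing cells that depend on Tcf4, differed the same way between DF and TF. Of 8 markers 7 were called lower in DF than in TF, among them Siglech (-5.89, adjusted p = 0.00482), and their sum was between 117 and 136 CPM in DF, 242 and 602 in TF, 153 and 248 in TFD and 295 and 330 in WT. Cox6a2 had 0 or 1 reads in DF and TFD against 4 to 22 in TF, and Siglech had 1 to 17 reads in DF against 146 to 693 in TF. Tcf4 and Irf7 stand both on this list and among the family members. Classical dendritic markers (4 of 6 lower, 63.2 to 127 CPM in DF and 183 to 413 in TF) and erythroid markers (6 of 6 lower, 24.6 to 34.4 CPM in DF and 96.2 to 384 in TF) also differed. So did plasma cell markers (3 of 7 lower, 417 to 424 CPM in DF and 569 to 1060 in TF). Called lower too were 2 of 5 mature B cell, 2 of 12 T cell, 1 of 8 NK cell and 1 of 12 B lineage markers. Of 8 neutrophil markers 1 was higher. Without TF replicate 3 the highest TF sums were 313 CPM for plasmacytoid, 283 for classical dendritic, 142 for erythroid and 667 for plasma cell markers. Their part in the Bach2 and Irf4 difference was not tested.

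No factor was called between TFD and either other mutant group. Against TFD, the DF values ran from -1.51 (Bach2, SE 0.42, adjusted p = 0.163) to 0.53 (Ebf1, SE 0.93), with 5 of 9 below 0 and 3 at an unadjusted p under 0.05. Of all genes tested, 0 were called lower (0.0%) and 0 higher. Irf4 stood at -1.07 (SE 0.27, adjusted p = 0.138). DESeq2 called 1 factor, Irf4 (-1.10), and 1.27% of all genes lower in that comparison. With edgeR, Irf4 and Bach2 were called without TFD replicate 1 (-1.38 and -2.04, adjusted p = 0.0343 and 0.0312) and were at -0.70 and -0.78 (adjusted p = 0.889 and 0.999) without TFD replicate 2, and Irf4 and Pou2af1 without TF replicate 3 (-1.07 and -0.88, adjusted p = 0.0479 and 0.0496). Against TFD, the TF values ran from 0.02 (Foxo1, SE 0.35) to 3.21 (Pax5, SE 1.5, adjusted p = 0.572), none under 0 and 0 at an unadjusted p under 0.05. Of all genes tested, 1 was called lower (0.00821%) and 1 higher, and DESeq2 called 0 factors. The Pax5 value was 0.12 without TF replicate 3 and 6.78 without TFD replicate 2. With 2 TFD libraries these comparisons had wide errors, and a missed threshold does not show equal levels.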

How the data were processed

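Per the labels and the study's methods, reads of rRNA- and globin-depleted total RNA were aligned to mm10 with STAR and counted per refGene gene with featureCounts, and the authors removed genes unless over 3 samples exceeded 0.5 CPM; tool versions and the strand setting are not given in the sources used here. The authors deposited raw counts for 12199 genes, log2 CPM values (matched to 5e-09 by edgeR's cpm with a prior count of 0.25) and the counted length in bases. TFD replicate 3 was not analysed here.

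Counts of the 12175 genes that passed the same filter in the 11 libraries were fitted with edgeR 4.0.16 (TMM factors, 1 mean per genotype, quasi-likelihood F-test, Benjamini-Hochberg adjustment over all genes tested, threshold 0.05). edgeR was the main test because the values are counts; DESeq2 1.42.0, named in the study's methods, and limma 3.58.1 on log2(CPM + 1) were alternatives, beside other factors, no filter, a 2-fold minimum, models of 2 groups, a replicate block, a term for over 10000 Xist reads and leaving out each library. The fits were tested on simulated data before use. Labels name no separate animals, so p-values measure the spread between these samples. Levels are CPM with TMM factors, RPKM divides them by counted length, and fold changes are log2. Read intervals are exact binomial at 95%, and a floor of 3 counts marks the limit of counting.

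The members, gene lists and tests were chosen with earlier results of these data known. Named genes were the 9 factors, the 3 targeted genes, of each list the 3 largest changes among those called against WT, family members and partners, and the 5 nearest profiles for Ebf1, Pax5 and Tcf3. Genes named outside this rule were chosen after their values were seen. Some genes that the rule names are not reported here. Promoter sequences are from RefSeq (GRCm38.p6), and overlapping genes from GENCODE M21. Python 3.11.15 was used for tables and figures.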

Additional observations from a re-analysis of the deposited data

Results flagged for a closer look

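The effect of the mutant genotype against WT differed between DF and TF by the direct test of DF against TF (edgeR, adjusted p under 0.05) for 2 of the 9 factors and for 12 other genes of the lists of targets, family members, partners and lymphoid factors. Genes that stand only on the cell type marker lists, several of which also differed, were left out of this count. The genes tested were 16 and 11 targets, 18 family members, 23 partners and 12 lymphoid factors, with some shared between lists. Over all genes tested, 4.27% were called lower and 1.67% higher in DF than in TF. The factors were Bach2 (-1.79) and Irf4 (-1.24), and neither was called without DF replicate 2 or without DF replicate 3. Lower in DF than in TF were also Spib (-3.53), Cd22 (-3.11), Il7r (-2.22), Irf7 (-1.58), Tcf4 (-1.20), Bcl11a (-1.10), Irf9 (-0.94), Mef2c (-0.75), Sesn1 (-0.55), Irf1 (-0.47) and Foxo4 (-0.41). Mafg was higher (0.48). Groups of 2 or 3 libraries are too small for a test of single outlying samples.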

How the results depend on the processing

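In DF against WT 9 factors were called under each alternative run but the 2-fold minimum, which left 8. With 1 library left out, between 8 and 9 were called in TF against WT and between 7 and 9 in TFD against WT. The 2-fold minimum left 7 in each, and the replicate block left 8 in TFD, losing Irf4. No alternative run changed a direction against WT.

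Between mutants, leaving out 1 library moved the number called in DF against TF between 0 and 3 and in DF against TFD between 0 and 2, as named with those results. In DF against TFD, where 0 were called, a model of only the 2 groups and DESeq2 each called 1, Irf4. Where a TFD library was left out, the other was assumed to vary like the other groups. Directions turned only for uncalled values. For Tcf3 in DF against TFD the value was -0.08 with library totals, -0.01 with RLE factors, -0.0 in the 2-group model and -0.01 with DESeq2, and for Ikzf3 it was 0.43 with the term for Xist. With 1 library left out, DF against TF ran from -1.86 to 0.54 for Ebf1, -4.54 to 0.34 for Pax5 and -1.3 to 0.21 for Ikzf3. DF against TFD ran from -0.4 to 1.3 for Ebf1, -1.32 to 4.0 for Pax5, -0.06 to 1.0 for Lef1, -0.32 to 0.14 for Ikzf3 and -0.18 to 0.2 for Tcf3. TF against TFD ran from -0.02 to 2.23 for Ebf1, 0.12 to 6.78 for Pax5, -0.47 to 0.68 for Foxo1, -0.28 to 1.23 for Ikzf3, -0.42 to 0.8 for Pou2af1, -0.25 to 1.03 for Bach2 and -0.14 to 0.56 for Irf4. The cause was not tested. Relative to the B lineage markers 2 factors lay below WT in all mutant libraries, and 4 with Cd79a and Cd79b alone.

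Deviations of same-numbered libraries correlated between -0.299 and 0.247, and those of differently numbered libraries between -0.225 and 0.299. The replicate numbers thus gave no sign of pairing. The TFD libraries deviate from their mean by equal amounts in opposite directions, so their correlations mirror each other. With the replicate number as a block, 9, 9 and 8 factors were called against WT, 2 in DF against TF and 0 in each other comparison, and Foxo1 in TF against TFD was at -0.05. Over all genes the block gave 42 calls in DF against TFD, where the fit without it gave 0. Pax5 and Lef1, with 0 to 36 and 2 to 15 reads per mutant library, were limited by depth.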
